A study of Mus musculus with 16 samples.

Results

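The protein kinase C isoforms are a family of serine/threonine kinases, and 8 of their genes, of 18193 gene symbols on the array, were followed here in the aorta of apolipoprotein E-deficient mice: Prkca, Prkcb, Prkcd, Prkce, Prkch, Prkcq, Prkci and Prkcz. They were chosen by symbol and not by their values, though earlier results of these data were known. Every probe set (a set of short probes on the array that reads 1 transcript region) whose annotation gave exactly 1 of these symbols was taken. This gave 20 probe sets of the 45101 on each array: 3 for Prkca, 3 for Prkcb, 2 for Prkcd, 4 for Prkce, 2 for Prkch, 1 for Prkcq, 2 for Prkci and 3 for Prkcz.

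Whole aorta was profiled in 16 mice, with 1 Affymetrix array per mouse, so the arrays of a group are biological replicates. The labels gave 4 groups of 4 mice, which are called diabetic RBX, diabetic, non-diabetic RBX and non-diabetic. All 16 were APOE-/- animals 18 weeks old that had eaten a high fat diet for 10 weeks from 8 weeks of age, so the deletion and the diet were shared by every group. Diabetic mice had received streptozotocin (STZ), which kills pancreatic beta cells, at 6 weeks of age. RBX mice had ruboxistaurin (LY333531), which blocks the kinase encoded by Prkcb, mixed into that diet; no dose is printed because the labels give none. The agent acts on the kinase protein, whereas the arrays measured messenger RNA.

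Classical isoforms (Prkca, Prkcb) need both calcium and diacylglycerol, the calcium-independent isoforms (Prkcd, Prkce, Prkch, Prkcq) need diacylglycerol alone, and atypical isoforms (Prkci, Prkcz) need neither and work in cell polarity complexes. High glucose raises diacylglycerol in vascular cells, and the beta isoform is the one most often tied to vascular complications of diabetes. In the vessel wall, these kinases act in smooth muscle contraction, endothelial permeability and the activation of leukocytes and macrophages.

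As a set, the 4 non-diabetic RBX arrays were unlike the remaining 12. Their scores on principal component 1, which held 27.9% of the variance, lay between 27.9 and 83.7, and those of the remaining arrays between -41.4 and 3.40. Their cre hybridisation control signal ran from 308745 to 575618, against 156465 to 249020 in non-diabetic mice. For Actb, whose 3' over 5' probe set ratio reflects how intact and how fully labelled the RNA was, the log2 ratio ran from 1.67 to 2.51 in non-diabetic RBX mice, against 0.85 to 1.32 in non-diabetic mice. The diabetic RBX mice, at 1.47 to 1.89, overlapped the non-diabetic RBX mice in this ratio, so it does not by itself set the 4 arrays apart. Neither measure overlapped between non-diabetic RBX and non-diabetic mice. The cre signal of diabetic RBX mice, 261860 to 294506.5, did not overlap that of non-diabetic RBX mice either. With cre as a covariate 0 of 22518 probe sets were called for RBX in non-diabetic mice, and with the Actb ratio 183, where 6223 were called with neither. Smooth muscle markers, which define the aortic wall, had signals above the median of all probe sets in 6 of 6 cases, while 0 of 4 measured B cell markers and 1 of 6 measured T cell markers were. The disrupted gene Apoe still gave 282 ± 189 in diabetic RBX, 851 ± 207 in diabetic, 730 ± 66.4 in non-diabetic RBX and 546 ± 201 in non-diabetic mice (mean ± SD, n = 4). It was called for diabetes with RBX (-1.87, adjusted p = 0.0442) and in the interaction (-2.54, adjusted p = 0.0448), and in neither with cre (adjusted p = 0.37 and 0.486) or the Actb ratio (adjusted p = 0.117 and 0.155) as a covariate. The position of this probe set relative to the disruption was not examined.

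Signals are MAS5 intensities on a linear scale, read here between mice for 1 probe set but not between probe sets. The arrays share a trimmed mean, but their median signal ran from 444.6 to 532.3 in non-diabetic RBX mice, against 380.9 to 420.1 in non-diabetic mice. It ran from 434.2 to 463 in diabetic RBX and from 413.5 to 419.2 in diabetic mice. What this shift does to the dim probe sets was not tested. Of the 20 probe sets, 12 had a mean log2 signal above the median of all probe sets, a linear signal of 382, and entered the test. The lowest of these had a geometric mean of 399 and the highest of the other 8 one of 139. Both Prkcb probe sets that entered, and those of Prkca, Prkcd, Prkce, Prkch and Prkci, could therefore be tested, while Prkcq and Prkcz were read only by dim probe sets. Differences are log2 fold changes with their standard error from limma, with p-values adjusted by Benjamini-Hochberg over the 22518 probe sets tested, and a probe set was called when its adjusted p was under 0.05.

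**Figure D1:**
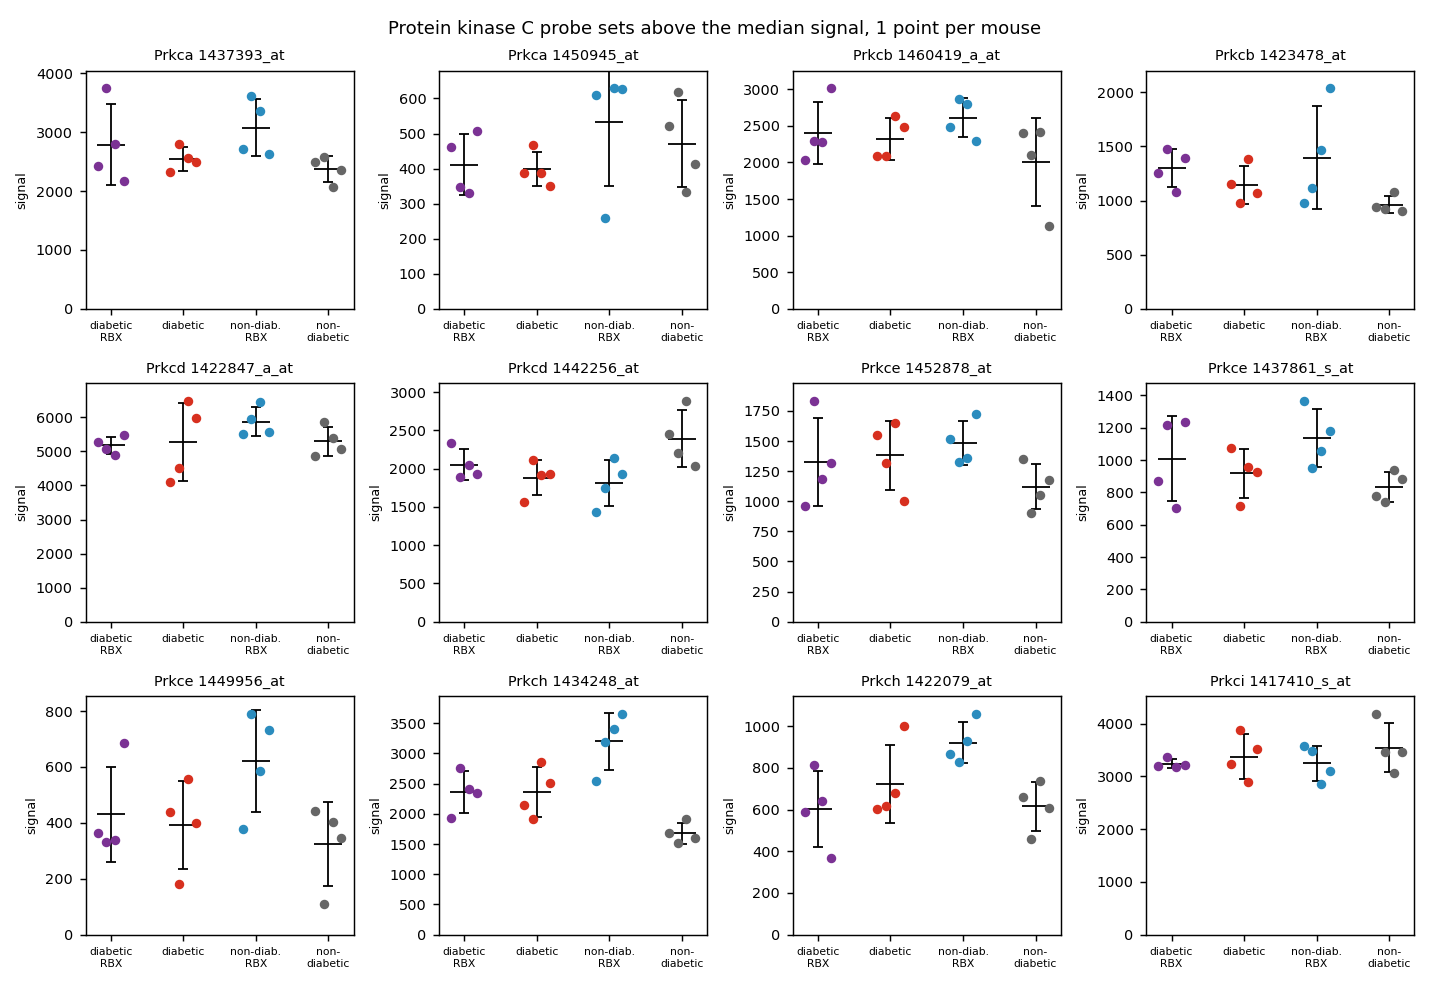
Signal (linear scale, from 0) of the 12 protein kinase C probe sets above the median, with 1 point per mouse, the group mean as a horizontal mark and the SD as a bar (n = 4 per group). Prkch probe set 1434248_at shows the 4 non-diabetic RBX mice between 2550.3 and 3654, all above the 4 non-diabetic mice at 1512 to 1913, while the groups of most other probe sets overlap.

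Prkcb encodes the kinase that RBX inhibits and lies on chromosome 7 at 122289104 to 122634402 of GRCm38.p6. Its promoter window is shown beside that of Prkca, the other classical isoform, because the pair differ in a motif. The RefSeq windows of assembly GRCm38.p6 run from 250 bases before to 50 after an annotated start, at chr7:122288875-122289174 on the plus strand for Prkcb and chr11:108343839-108344138 on the minus strand for Prkca. Capitals mark the octamer (ATGCAAAT) and the GC box (GGGCGG), each searched on both strands.
Prkcb: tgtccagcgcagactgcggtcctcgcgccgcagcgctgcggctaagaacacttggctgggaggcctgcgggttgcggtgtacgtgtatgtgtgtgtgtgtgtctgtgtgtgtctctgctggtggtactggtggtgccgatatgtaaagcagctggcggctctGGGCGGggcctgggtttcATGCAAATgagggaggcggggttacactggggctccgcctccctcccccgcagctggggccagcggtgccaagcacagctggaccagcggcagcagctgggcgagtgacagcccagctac
Prkca: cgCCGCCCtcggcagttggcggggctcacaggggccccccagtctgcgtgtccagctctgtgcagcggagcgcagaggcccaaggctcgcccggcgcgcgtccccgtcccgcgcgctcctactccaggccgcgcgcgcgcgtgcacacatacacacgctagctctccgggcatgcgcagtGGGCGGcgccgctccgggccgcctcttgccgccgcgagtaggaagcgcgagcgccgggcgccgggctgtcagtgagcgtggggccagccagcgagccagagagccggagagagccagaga
The octamer, a motif known from promoters of B lymphocyte genes, stood once in the Prkcb window, from -70 to -63 of the start. It was present in 1.74% of the 32851 promoter windows of this length and in 0 of the 8 windows of the other members. The GC box had 1 match in the Prkcb and 2 in the Prkca window, and was present in 35.7% of all windows. E-boxes (CANNTG) had 6 matches for Prkcb, 1 of which overlaps the octamer, and 1 for Prkca; 72.3% of all windows hold at least 1. The TATA box (TATAAA) had a match in neither window, and in 13.6% of all. Of the 8 members 6 had a window in the RefSeq table, 9 windows in all; Prkce and Prkch are named only.

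Prkcb did not pass in any comparison with either probe set tested. Probe set 1460419_a_at, the brighter one, gave signals of 2034, 2292, 2278 and 3013 in diabetic RBX mice and 2085, 2081, 2637 and 2482 in diabetic mice. It gave 2482, 2864, 2801 and 2293 in non-diabetic RBX mice, and 2396, 2095, 2412 and 1126 in non-diabetic mice. All 4 groups overlap, and the lowest value by far is that of non-diabetic mouse 4. Group means were 2404 ± 423 in diabetic RBX, 2321 ± 282 in diabetic, 2610.1 ± 269 in non-diabetic RBX and 2007 ± 605 in non-diabetic mice (SD, n = 4 each). RBX in diabetic mice came with a log2 difference of 0.04 (SE 0.20, adjusted p = 0.963), whose 95% interval ran from -0.37 to 0.46. For RBX in non-diabetic mice it was 0.44 (SE 0.20, adjusted p = 0.111), with an interval from 0.02 to 0.85. Adjusted for cre this was 0.50 (adjusted p = 0.668), and for the Actb ratio 0.44 (adjusted p = 0.612). Diabetes without RBX gave 0.26 (SE 0.20, adjusted p = 0.621), and diabetes with RBX gave -0.13 (SE 0.20, adjusted p = 0.733). With 1 mouse left out at a time, RBX in non-diabetic mice ran from 0.18 to 0.55 and diabetes without RBX from 0.01 to 0.37. The lowest value of each came without non-diabetic mouse 4.

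The second Prkcb probe set, 1423478_at, measured 1251, 1473, 1079.5 and 1394 in diabetic RBX mice and 1151, 979, 1385 and 1070.1 in diabetic mice. It measured 974, 1116, 1464 and 2038 in non-diabetic RBX mice, against 942, 923, 1079.5 and 906 in non-diabetic mice. Non-diabetic RBX mice were spread the widest, with mouse 4 the highest of all 16 and mouse 1 inside the non-diabetic range. The difference for RBX in non-diabetic mice was 0.48 (SE 0.20, adjusted p = 0.0788). Without non-diabetic RBX mouse 1 it was 0.64 (adjusted p = 0.0229). Over all runs that left out 1 mouse, the difference ran from 0.28 to 0.64 and its adjusted p from 0.0229 to 0.276. Adjusted for the cre control, the difference was -0.43 (adjusted p = 0.643), and for the Actb ratio 0.05 (adjusted p = 0.959). Across the 16 arrays these probe sets of Prkcb had r = 0.39, as a description of arrays that share a scaling step. The third, 1443144_at, lay between 8.60 and 231 on all arrays, with each group spread over most of that range.

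Prkca encodes the alpha isoform, the classical isoform found in most cell types. Its brightest probe set, 1437393_at, gave 2428, 3745, 2798 and 2177 in diabetic RBX mice and 2329.7, 2806, 2558 and 2486 in diabetic mice. Non-diabetic RBX mice had 2710.2, 3606, 3356 and 2629.7, against 2497, 2572, 2068 and 2358 in non-diabetic mice. In this last pair every RBX mouse lay above every mouse without RBX, though the closest values, 2629.7 and 2572, differ by little. RBX in non-diabetic mice gave 0.37 (SE 0.15, adjusted p = 0.0845), and diabetes without RBX 0.10 (SE 0.15, adjusted p = 0.845). Adjusted for cre the RBX value was 0.47 (adjusted p = 0.585), and for the Actb ratio 0.36 (adjusted p = 0.589).

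A dimmer Prkca probe set, 1450945_at, averaged 411 ± 86.9 in diabetic RBX, 398 ± 49.4 in diabetic, 532 ± 182 in non-diabetic RBX and 471 ± 125 in non-diabetic mice. Its 4 groups overlap, and over the 16 arrays it had r = -0.16 with the brighter one, so the pair did not rank the mice alike. The third, 1427562_a_at, lay below 100 in 14 of 16 mice and read 301 and 198 in diabetic mice 2 and 4.

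Among the calcium-independent isoforms, Prkcd encodes the delta isoform, which acts in apoptosis and in leukocytes and smooth muscle. Probe set 1422847_a_at gave 5278, 5084, 4899 and 5477 in diabetic RBX mice and 4089, 4512, 6478 and 5996 in diabetic mice. It gave 5526, 5945, 6458 and 5583 in non-diabetic RBX and 4862, 5852, 5405 and 5069 in non-diabetic mice. Diabetic mice were split, with 2 values below and 2 values above all 4 diabetic RBX values. The 4 diabetic RBX mice lay below the 4 non-diabetic RBX mice, at a difference of -0.18 (SE 0.13, adjusted p = 0.406). RBX in diabetic mice gave 0.00 (SE 0.13, adjusted p = 0.997), with an interval from -0.26 to 0.27.

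The other Prkcd probe set, 1442256_at, read 2334, 1892, 2051 and 1927 in diabetic RBX mice and 1565, 2114, 1919.7 and 1937 in diabetic mice. It read 1433, 1745, 2146 and 1932 in non-diabetic RBX mice, against 2451, 2202, 2883 and 2038 in non-diabetic mice. Non-diabetic mice held the highest values but overlapped every other group. Its difference for RBX in non-diabetic mice was -0.40 (SE 0.15, adjusted p = 0.0503), where 1422847_a_at had 0.15 (SE 0.13, adjusted p = 0.399). The adjusted p was 0.0425 without non-diabetic mouse 4, 0.0263 without non-diabetic RBX mouse 3 and 0.0375 among the probe sets above the 70th percentile. Over all runs that left out 1 mouse, it ran from 0.0263 to 0.148. Adjusted for cre the difference was -0.96 (adjusted p = 0.148), and for the Actb ratio -0.47 (adjusted p = 0.438). Over the 16 arrays these probe sets had r = 0.07.

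Prkce encodes the epsilon isoform, known for its part in cardiac muscle and in contraction. None of its 3 tested probe sets passed in any comparison. Probe set 1452878_at averaged 1325 ± 368 in diabetic RBX, 1380.1 ± 289 in diabetic, 1481 ± 181 in non-diabetic RBX and 1121 ± 189 in non-diabetic mice (SD, n = 4). Probe set 1437861_s_at gave 1364, 951, 1056 and 1181 in non-diabetic RBX mice, against 777, 740.5, 936 and 886 in non-diabetic mice, which do not overlap. Probe set 1449956_at gave 378, 789.5, 586 and 732 in non-diabetic RBX mice, against 441, 108, 401 and 346 in non-diabetic mice.
For RBX in non-diabetic mice all 3 lay above 0, at 0.41 (adjusted p = 0.138), 0.44 (adjusted p = 0.112) and 1.07 (adjusted p = 0.0865) in that order. Their pairwise r over the 16 arrays ran from 0.48 to 0.60, the closest likeness among the tested probe sets of any member but Prkch. With the Actb ratio as a covariate the first turned to -0.10 (adjusted p = 0.921), and the others had 0.37 (adjusted p = 0.684) and 0.37 (adjusted p = 0.87). With cre the 3 had 0.13 (adjusted p = 0.931), 0.38 (adjusted p = 0.765) and 0.45 (adjusted p = 0.889). The fourth, 1437860_at, lay between 2.70 and 179.

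Prkch encodes the eta isoform, a kinase known in epithelium, endothelium and the T cell and macrophage lineages. Its gene lies on chromosome 12 at 73584796 to 73778185 of GRCm38.p6. Among the 12 tested probe sets of the family it held the only one that passed, and only in comparisons that include the non-diabetic RBX arrays. Probe set 1434248_at gave 1931, 2763, 2405 and 2352 in diabetic RBX mice and 2153, 1909, 2866 and 2515 in diabetic mice. It gave 2550.3, 3185, 3408 and 3654 in non-diabetic RBX mice, against 1685, 1512, 1913 and 1606 in non-diabetic mice. Non-diabetic mice were the lowest group and non-diabetic RBX mice the highest, with both diabetic groups between them.

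Group means of 1434248_at were 2363 ± 341 in diabetic RBX, 2361 ± 419 in diabetic, 3199 ± 473 in non-diabetic RBX and 1679 ± 171 in non-diabetic mice (SD, n = 4). With RBX in non-diabetic mice it was higher by 0.92 on the log2 scale (SE 0.15, adjusted p = 0.000253), with an interval from 0.61 to 1.24, and all 4 mice lay above all 4 non-diabetic mice. RBX in diabetic mice gave 0.01 (SE 0.15, adjusted p = 0.993), with an interval from -0.31 to 0.32. The interaction, the RBX effect in diabetic minus that in non-diabetic mice, was -0.92 (SE 0.21, adjusted p = 0.0121). Averaged over diabetes status, RBX gave 0.46 (SE 0.11, adjusted p = 0.00657).
Between the other neighbours in level the differences did not pass: diabetes without RBX gave 0.48 (SE 0.15, adjusted p = 0.16) and diabetes with RBX -0.44 (SE 0.15, adjusted p = 0.0857). The first passed with array weights (0.52, adjusted p = 0.0224), and the second without non-diabetic RBX mouse 1 (-0.54, adjusted p = 0.0356). With 1 mouse left out at a time, the adjusted p ran from 0.0936 to 0.453 for the first and from 0.0356 to 0.232 for the second.

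The second Prkch probe set, 1422079_at, read 586, 812, 642 and 367 in diabetic RBX mice and 601, 616, 679.6 and 1001 in diabetic mice. It read 868, 830.4, 929.7 and 1059 in non-diabetic RBX mice, against 662, 456, 735 and 606 in non-diabetic mice. Here too the 4 non-diabetic RBX mice lay above all non-diabetic mice, and above all diabetic RBX mice. Its differences had the signs of the brighter probe set for RBX in non-diabetic mice (0.60, SE 0.25, adjusted p = 0.0809), diabetes with RBX (-0.67, SE 0.25, adjusted p = 0.109) and the interaction (-0.89, SE 0.35, adjusted p = 0.115), and none passed. Adjusted for cre, 1422079_at had 0.26 (adjusted p = 0.88) for RBX in non-diabetic mice, and for the Actb ratio 0.39 (adjusted p = 0.74). Over the 16 arrays the probe sets of Prkch had r = 0.64.

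Both array measures moved with Prkch. With the cre control as a covariate, 1434248_at differed by 0.47 (adjusted p = 0.539) for RBX in non-diabetic mice and by -0.55 (adjusted p = 0.459) in the interaction. With the Actb ratio as a covariate these were 0.64 (adjusted p = 0.278) and -0.73 (adjusted p = 0.141), so both calls were lost and both directions kept.

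**Figure D2:**
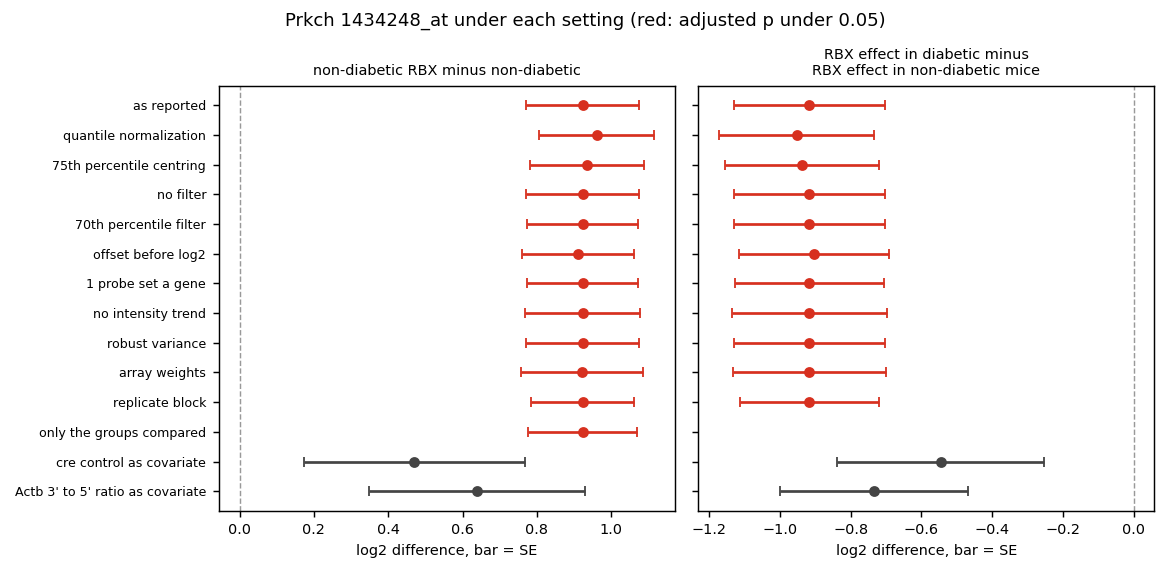
Log2 difference of Prkch probe set 1434248_at (point, with its SE as a bar) under each processing setting that leaves out no mouse, for RBX in non-diabetic mice on the left and for the interaction on the right; red marks an adjusted p under 0.05. The values shrink from 0.92 and -0.92 as reported to 0.47 and -0.55 with the cre control as a covariate, and stay on the same side of 0.

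Prkcq encodes the theta isoform, the kinase of the T cell receptor pathway and of skeletal muscle. It had 1 probe set, 1426044_a_at, well below the median signal. It gave 33.7, 42.7, 55.8 and 41.2 in diabetic RBX mice and 21.2, 53.2, 28.8 and 52.9 in diabetic mice. It gave 439.7, 416, 79.9 and 582 in non-diabetic RBX mice, against 101, 36.9, 101 and 154 in non-diabetic mice. The 3 highest values were all of non-diabetic RBX mice, and mouse 3 of that group lay among the non-diabetic mice. Fitted without the filter on low values, Prkcq was lower in diabetic RBX than in non-diabetic RBX mice, by -2.83 on the log2 scale (SE 0.77, adjusted p = 0.0491), with no overlap. Adjusted also for cre this was -2.70 (adjusted p = 0.37), and for the Actb ratio -2.15 (adjusted p = 0.293), so the call was lost with either. The cre signals of these groups do not overlap, so cre and this difference cannot be told apart. The other comparisons did not pass, the difference being 1.80 (SE 0.77, adjusted p = 0.139) for RBX in non-diabetic mice and -1.27 (SE 0.77, adjusted p = 0.688) for diabetes without RBX. No detection call was used here, so whether values this low exceed the background of the array is not known.

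Of the atypical isoforms, Prkci encodes the iota isoform, which acts with Par proteins in cell polarity. Probe set 1417410_s_at gave 3199, 3369.6, 3181 and 3219 in diabetic RBX mice and 3226, 3872, 2888 and 3522 in diabetic mice. It gave 3570.4, 3473, 2859.9 and 3099 in non-diabetic RBX and 4183, 3459, 3065 and 3462 in non-diabetic mice. The 4 groups overlap, and diabetic RBX mice were the tightest, with 3242 ± 86.4 (SD, n = 4). All 4 comparisons of 2 groups lay between -0.12 and 0.00, with an adjusted p of 0.477 at the lowest and standard errors of 0.12. The other Prkci probe set, 1448695_at, lay between 40.6 and 292.

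Prkcz encodes the zeta isoform, the other atypical kinase. Its brightest probe set, 1418085_at, gave 20.6, 41.4, 228 and 155 in diabetic RBX and 346, 145, 297 and 175 in diabetic mice, with an overlap. It gave 391, 69.9, 279 and 463 in non-diabetic RBX and 102, 87.6, 40.0 and 204 in non-diabetic mice. Probe sets 1449692_at and 1454902_at ranged from 6.80 to 521 and from 10.3 to 204. None of the 3 passed in any comparison without the filter, and within groups their values often differed several-fold between mice.

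**Figure D3:**
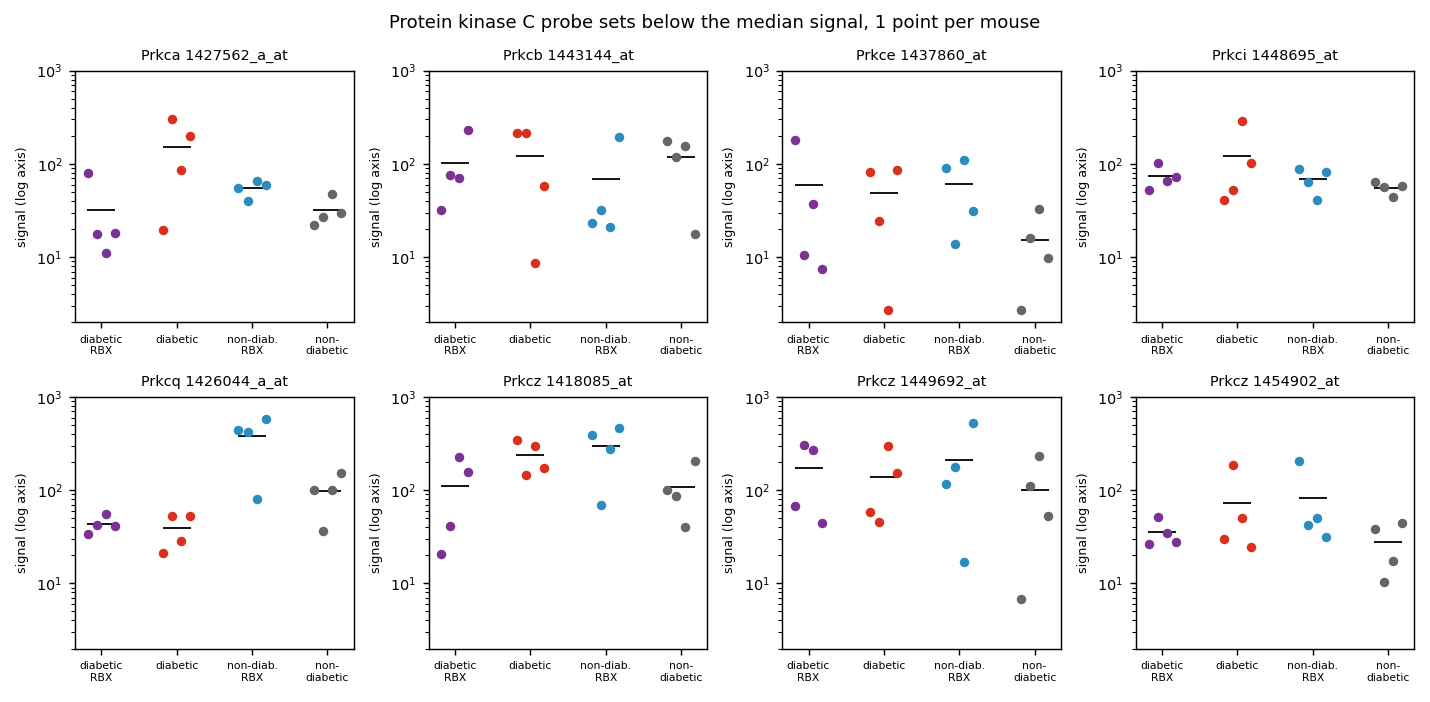
Signal (log axis) of the 8 protein kinase C probe sets below the median of all probe sets, with 1 point per mouse and the mean of the 4 mice as a horizontal mark. Within a group the values often spread over an order of magnitude, and Prkcq reads 416 to 582 in 3 non-diabetic RBX mice and at most 55.8 in all 8 diabetic RBX and diabetic mice.

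Among the 12 tested probe sets, diabetes without RBX and RBX in diabetic mice gave no call. For diabetes without RBX, 0 of the 12 tested probe sets were called in limma (2 at an unadjusted p under 0.05, against 13.5% of all probe sets), where 0.369% of all probe sets were. For RBX in diabetic mice 0 were called in limma (0 at an unadjusted p under 0.05, against 10.4% of all), where 0.0533% of all were. Both backgrounds are so low that a count of 0 says little. The 12 differences for RBX in diabetic mice had a median of 0.04, and that of all probe sets was -0.0029. For diabetes without RBX the medians were 0.18 and 0.01. Prkcd 1442256_at (-0.34, adjusted p = 0.321) and Prkch 1434248_at were the 2 probe sets under an unadjusted p of 0.05.

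RBX in non-diabetic mice was the comparison with the most movement, in the family as on the whole array. Of the 12 probe sets 1 was called, Prkch 1434248_at, against 27.6% of all probe sets, so the family had no more calls than the background. Unadjusted, 8 of 12 had a p under 0.05, against 39.5% of all. The 12 had a median of 0.42, and 10 lay above 0, against 49.7% of all. In 4 of 12 all non-diabetic RBX mice lay above all non-diabetic mice, against 11.9% of all: Prkca 1437393_at, Prkce 1437861_s_at and both of Prkch. For diabetes with RBX 0 were called in limma (2 at an unadjusted p under 0.05, against 23.8% of all), where 7.45% of all were. There all diabetic RBX mice lay below all non-diabetic RBX mice for 2 of 12, Prkcd 1422847_a_at and Prkch 1422079_at, against 5.29% of all. The interaction held 1 call, against 9.85% of all, and the averaged effect of RBX 1, against 17.2%; both are Prkch 1434248_at. The averaged effect of diabetes held 0 in limma (0 at an unadjusted p under 0.05), against 0.0444% of all.
Comparisons that share the 4 non-diabetic or the 4 non-diabetic RBX arrays are not independent of each other.

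**Figure D4:**
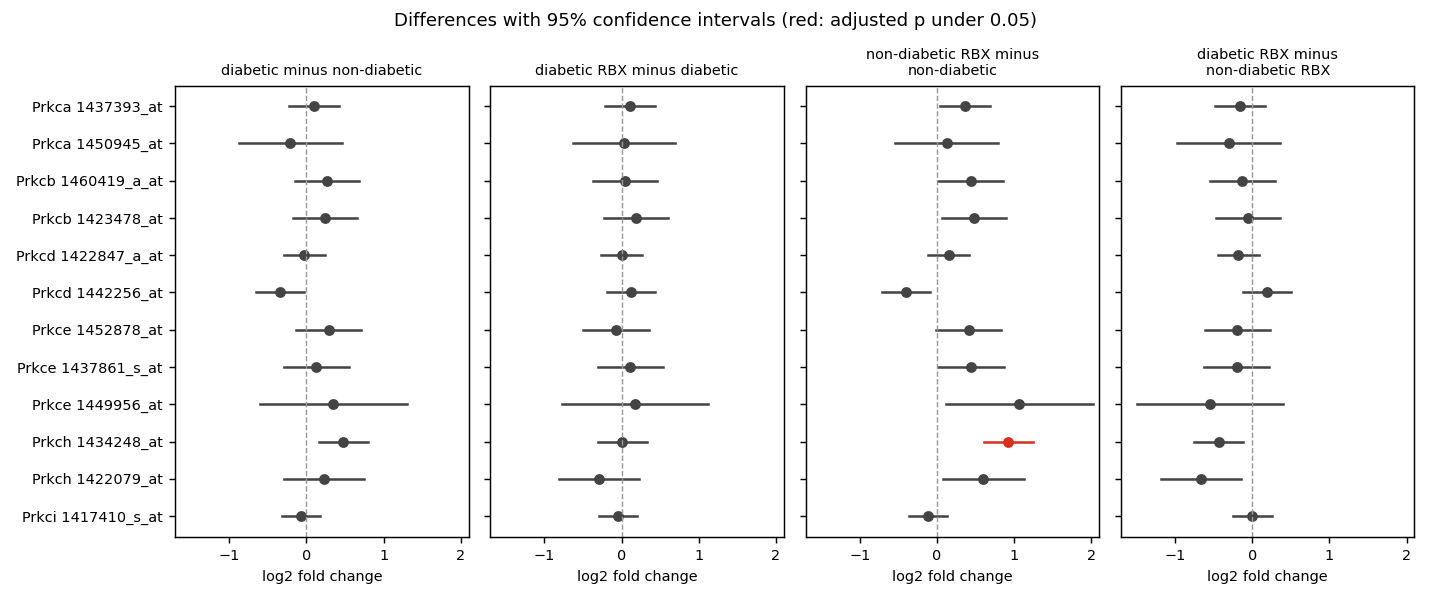
Log2 fold changes (point) with 95% confidence intervals (line) of the 12 tested probe sets in the 4 comparisons of 2 groups, named above each panel; red marks an adjusted p under 0.05. Intervals in the panel for RBX in diabetic mice all span 0, and the only red point is Prkch 1434248_at at 0.92 for RBX in non-diabetic mice.

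Markers of several cell types differed for RBX in non-diabetic mice, a comparison in which Prkch was called. There 13% of all probe sets rose and 14.6% fell. Of 11042 genes tested by their brightest probe set, as the markers were, 1742 rose and 1601 fell. Whole aorta mixes cells, and in such bulk samples more cells of a type and more RNA per cell cannot be told apart. For RBX in non-diabetic mice 5 of 6 endothelial markers rose and 0 fell, their summed signal running from 46915 to 68482 in non-diabetic RBX mice and from 32293 to 36121 in non-diabetic mice. In diabetic RBX mice that sum ran from 42429 to 53322 and in diabetic mice from 34909 to 56115. Of the 7 macrophage markers 5 rose and 0 fell, with sums of 100248 to 126810 in non-diabetic RBX mice, against 55407 to 81874 in non-diabetic mice. They were 84617 to 91349 in diabetic RBX and 69717 to 107498 in diabetic mice. All 4 tested platelet markers rose, and their sum with the dim Gp9 was 20755 to 36661 in non-diabetic RBX mice, against 9952 to 15178 in non-diabetic mice. It was 11112 to 17190 in diabetic RBX and 9379 to 13092 in diabetic mice. Smooth muscle markers went the other way in 4 of 6 cases and 1 rose, with sums of 290156 to 451634 in non-diabetic RBX mice, against 410279 to 446756 in non-diabetic mice. They were 449995 to 489350 in diabetic RBX and 358252 to 437992 in diabetic mice, so the non-diabetic RBX and non-diabetic sums overlap. Of 6 fibroblast markers 3 rose and 0 fell, with sums of 294418 to 470361 in non-diabetic RBX mice, against 278023 to 382217 in non-diabetic mice. Of 5 brown adipocyte markers 1 rose and 0 fell, with sums of 25983 to 117829 in non-diabetic RBX mice, against 19819 to 32877 in non-diabetic mice. The skeletal muscle sum, with 1 of 6 markers above the median, was 1629 to 2262 in non-diabetic RBX mice, against 997 to 1207 in non-diabetic mice. That 1 marker was not called and its difference did not lie above 0, and the other markers in the sum were dim. With cre as a covariate no marker of these types was called, and with the Actb ratio 1 endothelial and 1 fibroblast marker were.
Over the 16 arrays the log2 signal of Prkch 1434248_at had r = 0.78 with the endothelial, 0.87 with the macrophage, 0.70 with the platelet, 0.69 with the skeletal muscle, 0.48 with the brown adipocyte, 0.44 with the fibroblast and -0.48 with the smooth muscle sum. For the other sums Prkch had r = 0.60 (nerve and Schwann cell), 0.36 (white adipocyte), 0.35 (T cell), 0.05 (cardiac muscle) and -0.26 (B cell). These r describe arrays that share groups and scaling, and the part of these cells in the Prkch result was not tested.

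Prkcb and Prkcd had their highest r among the marker sums with the macrophage markers, at 0.69 and 0.57. Non-diabetic mouse 4 was the lowest mouse both in Prkcb 1460419_a_at (1126) and in the macrophage sum (55407). An r without that mouse was not computed. For Prkcb the B cell sum, which rests on markers below the median, gave 0.14. T cell markers summed to 1631 to 2177 in diabetic RBX, 1679 to 2545 in diabetic, 1624 to 4747 in non-diabetic RBX and 1555 to 2316 in non-diabetic mice, and the 5 below the median included Cd3e, Cd3d and Cd3g. Prkcq had r = 0.55 with that sum, 0.80 with the platelet sum and 0.69 with the skeletal muscle sum, for which 5 of 6 markers were below the median. It had 0.62 with the nerve and Schwann cell, 0.58 with the white adipocyte and 0.55 with the brown adipocyte sum. Its r with the other sums lay between -0.46 and 0.28, so the T cell sum did not stand out.

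**Figure D5:**
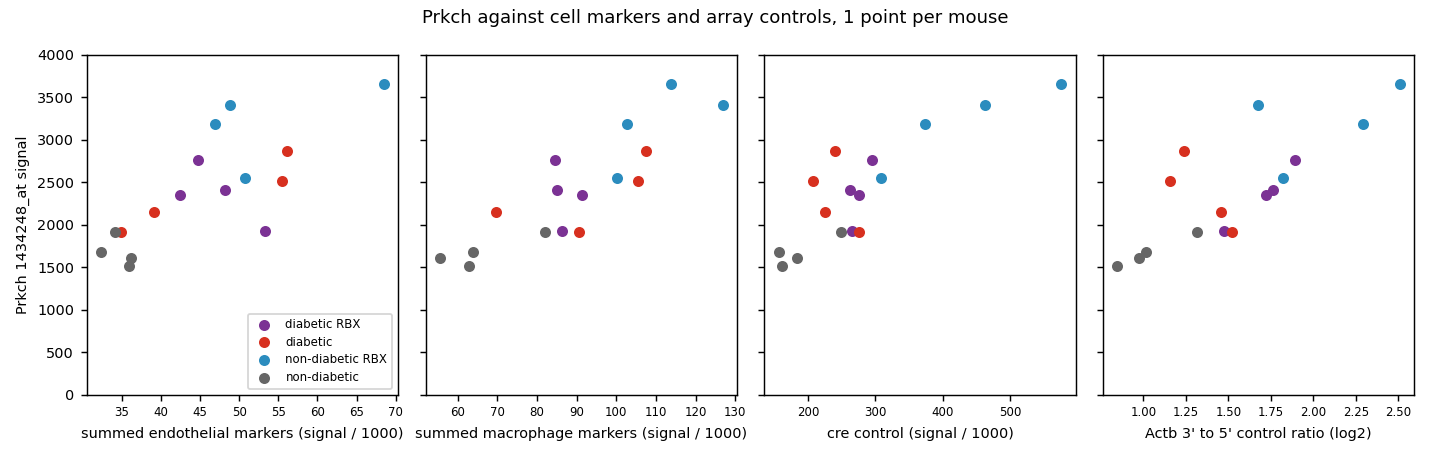
Signal of Prkch 1434248_at (vertical axis, from 0) against the summed endothelial markers, the summed macrophage markers, the cre hybridisation control (each scaled down as its axis label says) and the log2 3' to 5' ratio of Actb, with 1 point per mouse coloured by group. Non-diabetic RBX mice (2550.3 to 3654) lie toward the upper right and non-diabetic mice (1512 to 1913) toward the lower left, while the diabetic RBX mice (1931 to 2763) and diabetic mice (1909 to 2866) lie mostly between them and overlap with one or the other.

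By the pattern over the 16 arrays, the genes most like Prkcb 1460419_a_at were the interleukin 36 receptor gene Il1rl2 (Pearson r = 0.90), Timeless (0.88), Zfp185 (0.86), Iba57 (0.83) and Arap1 (0.82), among 11041 other genes. Only 8.78% of these genes had an r over 0.5 with Prkcb. Non-diabetic mouse 4 had by far the lowest signal of this Prkcb probe set, at 1126, and an r without that mouse was not computed. The second tested Prkcb probe set had r = 0.39 with the first. Prkch 1434248_at was nearest to Arhgap31 (0.96) and Rell1 (0.95), and with it 21.4% of genes had an r over 0.5. With group means removed, these r were 0.85 and 0.85. Nearest to the others were Snx19 (0.82) and Igdcc4 (0.81) for Prkca, Rhot2 (0.84) and Mapkapk3 (0.82) for Prkcd, Bcs1l (0.84) and Mest (0.80) for Prkce, and Stau1 (0.83) and Tmem209 (0.78) for Prkci. Among the members themselves, the highest r was 0.60, between Prkce and Prkch, and the lowest -0.51, between Prkch and Prkci.

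Around the kinases, 91 genes in 8 lists were followed, of which 79 were named by a probe set and 71 tested, each by its brightest probe set. Of the 71, 0 rose and 1 fell for diabetes without RBX, where 0.218% of all probe sets fell, and 0 were called in limma for RBX in diabetic mice (10 at an unadjusted p under 0.05, where 985 of 11042 genes had one). For RBX in non-diabetic mice 18 rose and 11 fell, where 1742 of the 11042 genes rose and 1601 fell. The median was 0.18 in the lists and 0.03 over the 11042 genes. For diabetes with RBX 4 rose and 1 fell, where 5.3% of all rose and 2.15% fell, with medians of -0.13 and -0.04. The listed genes that rose there were Plcb4, Ppp1r14a (0.89, adjusted p = 0.0045), Mylk (0.68, adjusted p = 0.032) and Hsp90aa1 (0.56, adjusted p = 0.0106). The one that fell was Ezr (-0.89, adjusted p = 0.00295). With cre as a covariate all 29 calls for RBX in non-diabetic mice were lost, and so were the 5 for diabetes with RBX and the 1 for diabetes without RBX. With the Actb ratio 1 of the 29 was kept, Plcb4 (-1.19, adjusted p = 0.0478), and 3 of the 5, Plcb4, Ppp1r14a and Ezr, while the 1 for diabetes without RBX was lost. Of the 29 genes 28 kept their sign with cre and 27 with the Actb ratio. The calls for single genes given next are those without a covariate. The counts of each list for RBX in non-diabetic mice stand against 1742 rising and 1601 falling of the 11042 genes.

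Upstream of the kinases, phospholipase C and Gq supply diacylglycerol. Of 11 tested genes 4 rose and 3 fell for RBX in non-diabetic mice, at a median of 0.28. Plcb4, a phospholipase C activated by Gq, averaged 20140.3 ± 2682 in diabetic RBX, 17808 ± 2824 in diabetic, 11069.8 ± 2039.6 in non-diabetic RBX and 25222 ± 2405 in non-diabetic mice. It fell with RBX in non-diabetic mice (-1.20, adjusted p = 1.01e-05) and was higher in diabetic RBX than in non-diabetic RBX mice (0.87, adjusted p = 0.000878). Plcb1 fell likewise with RBX in non-diabetic mice (-0.84, adjusted p = 4.1e-05), while Gnaq, the alpha subunit of Gq, rose (0.53, adjusted p = 0.00074).
Plcd1, a calcium-activated phospholipase C, was the 1 listed gene called for diabetes without RBX. It averaged 2660.3 ± 324 in diabetic mice and 4444 ± 792 in non-diabetic mice (-0.73, adjusted p = 0.0411). It fell also with RBX in non-diabetic mice (-0.46, adjusted p = 0.0299), and its interaction passed (0.88, adjusted p = 0.0137).

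Diacylglycerol kinases end the signal by phosphorylating the lipid. Of 5 tested, 2 rose and 1 fell for RBX in non-diabetic mice, at a median of -0.04. Dgkz rose (0.67, adjusted p = 0.000195) and so did Dgka (0.42, adjusted p = 0.0306), while Dgkh fell (-0.54, adjusted p = 0.0119). Dgke had its smallest p where diabetic RBX mice were set against diabetic mice (-1.01, adjusted p = 0.492). Of the 8 tested genes for other diacylglycerol or phorbol ester receptors 2 rose, at a median of 0.36: the protein kinase D genes Prkd2 (0.56, adjusted p = 0.0102) and Prkd3 (0.38, adjusted p = 0.0156). Prkd1 had -0.34 (adjusted p = 0.0558) and Unc13d, a vesicle priming factor of leukocytes, 0.72 (adjusted p = 0.0578), with its smallest p for diabetes with RBX (-0.85, adjusted p = 0.0656).

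Substrates and effectors, the longest tested list, held the most calls, 7 rising and 2 falling of 14 for RBX in non-diabetic mice. Their median was 0.38, and the 4 rising and 3 falling of 11 upstream genes were a similar share. Ppp1r14a encodes CPI-17, an inhibitor of myosin phosphatase in smooth muscle that protein kinase C activates. It averaged 10580.1 ± 1187 in diabetic RBX, 7430.0 ± 1051 in diabetic, 5798 ± 1318 in non-diabetic RBX and 12439 ± 2711 in non-diabetic mice. It fell with RBX in non-diabetic mice (-1.10, adjusted p = 0.000167), had 0.51 (adjusted p = 0.294) with RBX in diabetic mice, and its interaction was 1.61 (adjusted p = 0.000597). The myosin light chain kinase gene Mylk fell as well in non-diabetic RBX mice (-0.99, adjusted p = 0.00082), and the lamin gene Lmna (0.60, adjusted p = 0.00041) and Nrgn (1.28, adjusted p = 0.0048), whose product binds calmodulin, rose. Ppp1r14a and Mylk are smooth muscle genes, and 4 of the 6 smooth muscle markers given above fell in the same comparison while 1 rose. With cre as a covariate Ppp1r14a had -0.20 (adjusted p = 0.811) and Mylk -0.10 (adjusted p = 0.927).

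Genes for maturation of the kinases included 2 falls of 9 for RBX in non-diabetic mice, at a median of -0.13. Hsp90aa1, a chaperone, fell (-0.82, adjusted p = 0.00014), and so did Pdpk1, the kinase of the activation loop (-0.58, adjusted p = 0.00454). Rictor (-0.40, adjusted p = 0.101), of the kinase complex mTORC2, did not pass, and Mlst8 of that complex had its smallest p for diabetes with RBX (-0.52, adjusted p = 0.133). Of 9 anchors and scaffolds 2 rose and 2 fell, at a median of 0.37: Ezr, which links membrane and actin (1.07, adjusted p = 0.00013), and Cavin2 of caveolae (0.55, adjusted p = 0.00716) rose, and Cavin3 (-0.84, adjusted p = 0.00171) and Akap13 (-0.26, adjusted p = 0.0328) fell. Of these, Cavin3 has also been named for binding protein kinase C.
None of the 10 tested partners of the atypical kinases passed for RBX in non-diabetic mice in limma (2 at an unadjusted p under 0.05), at a median of 0.12. Mark2 had 0.40 (adjusted p = 0.0635), Cdc42 0.18 (adjusted p = 0.119) and Pard6g 0.41 (adjusted p = 0.161), and Pard3b had its smallest p for diabetes without RBX (-0.30, adjusted p = 0.413). Among related kinases Pkn3 rose (0.64, adjusted p = 0.00863) and Pkn2 fell (-0.51, adjusted p = 0.0218) of 5 tested, at a median of 0.15, while Sgk1 (0.34, adjusted p = 0.131) did not pass. Akt2 had its smallest p for diabetes with RBX (-0.20, adjusted p = 0.253).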

How the data were processed

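Total RNA of 16 aortas was hybridised to 1 Affymetrix array per mouse, per the labels' protocols. The deposited values are MAS5 signal intensity on a linear scale, per the submitters' processing notes, and every array has the same trimmed mean of 1500.01 when 2% of values is left out at each end. Detection calls were not used here.

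Signals were log2-transformed as deposited, without an offset. After removal of 64 control probe sets, those with a mean log2 signal over all 16 arrays above the median were kept, and the probe sets of a gene were tested apart. The test was limma 3.58.1 in R 4.3.3 (with the data.table package, version 1.17.8), with a mean per group, a variance trend on intensity, 12 residual degrees of freedom and a prior of 6.38, over 7 comparisons. P-values are two-sided. The script was tested on simulated data. Gene names came from GEO's platform annotation, in which 34958 probe sets had 1 symbol, 932 several and 9211 none, and positions from RefSeq, GRCm38.p6. No pair of arrays held identical values.

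The members, lists and tests were chosen with earlier results of these data known. Named were all 8 members, Apoe, up to 4 genes of each list with the smallest p over the 4 comparisons of 2 groups, and, by Pearson r over the 16 arrays, the 5 genes most like Prkcb and the 2 most like each other member. Replicate numbers 1 to 4 came from the titles. They did not pair the mice: after removing group means, arrays with the same number had r from -0.11 to 0.10 over 24 pairs. Nothing in the labels gives a batch. Fits of the lists, markers, Apoe and Prkcq with an array measure as a covariate were added after seeing the data. The number of arrays limits the precision.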

Additional observations from a re-analysis of the deposited data

Results flagged for a closer look

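The RBX effect on Prkch 1434248_at differed between diabetic and non-diabetic mice, with an interaction of -0.92 (limma, adjusted p = 0.0121). With the cre control or the Actb ratio as a covariate this call was lost, at -0.55 (adjusted p = 0.459) and -0.73 (adjusted p = 0.141).

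In 3 of 80 sets of 4 mice a single mouse lay far from the other 3 by Dixon's test on log2 signal, which flags about 1 in 20 by chance. The values below are on the linear scale. Prkcq 1426044_a_at read 79.9 in non-diabetic RBX mouse 3, against 416 to 582 in the other mice of its group. Prkca 1450945_at read 259 in non-diabetic RBX mouse 2, against 611 to 629 in the others. Prkce 1449956_at read 684 in diabetic RBX mouse 4, against 333 to 364 in the others.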

How the results depend on the processing

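Results were recomputed after quantile normalization or after centring arrays on their 75th percentile. The low-value filter was dropped or set at the 70th percentile, an offset was added before log2, and each gene was reduced to 1 probe set. The model was also fitted without the intensity trend, with robust variance, with array weights, with a replicate block, on the compared groups alone, with cre or the Actb ratio as a covariate, and without each mouse of the compared groups in turn. The covariates do not overlap between non-diabetic RBX and non-diabetic mice, so each covariate and that RBX effect cannot be told apart. The cre control also does not overlap between diabetic RBX and non-diabetic RBX mice, so cre and diabetes with RBX cannot be told apart. The calls of Prkch 1434248_at for RBX in non-diabetic mice and for the interaction held in every alternative run but these 2 covariates. Where a value below changed, the cause was not tested.

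The count of protein kinase C probe sets called for diabetes without RBX was 1 with array weights (reported, 0), which called 7.95% of all probe sets. For RBX in non-diabetic mice (reported, 1) it was 2 with the 70th percentile filter (38.7% of all called), 2 with the replicate block (27.3% of all), which added Prkca 1437393_at (0.37, adjusted p = 0.0469), and 0 with either covariate. For diabetes with RBX it was 1 with no filter, which is Prkcq (2.93% of all). For the interaction and for averaged RBX it was 0 with either covariate, averaged Prkch 1434248_at being 0.20 (adjusted p = 0.711) with cre and 0.27 (adjusted p = 0.589) with the Actb ratio. Leaving out 1 mouse gave 1 to 2 for RBX in non-diabetic mice (2 without non-diabetic mouse 4 or non-diabetic RBX mouse 1 or 3), 0 to 1 for diabetes with RBX and 1 to 2 for averaged RBX. In the last 2 the higher count came without non-diabetic RBX mouse 1, adding Prkcb 1423478_at (0.41, adjusted p = 0.0429) to averaged RBX. Replicate numbers did not pair the mice, 2 of 16 arrays correlating best with their own number, and the block changed no other call.

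Over all probe sets, calls ranged over these alternatives from 3 to 1791 for diabetes without RBX (reported, 83), 1 to 105 for RBX in diabetic mice (12), 0 to 6265 for RBX in non-diabetic mice (6223), 209 to 2084 for diabetes with RBX (1678), 3 to 2953 for the interaction (2217), 0 to 37 for averaged diabetes (10) and 0 to 4264 for averaged RBX (3876). The cre control as a covariate left 0 calls for RBX in non-diabetic mice, and the Actb ratio 183.

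Signs turned only for differences that were not called. With quantile normalization, Prkca 1450945_at was -0.091 for RBX in diabetic mice, -0.092 for RBX in non-diabetic mice, 0.00067 for the interaction and -0.092 for averaged RBX. Prkci 1417410_s_at was -0.031 for diabetes with RBX. Prkch 1434248_at was -0.0055 for averaged diabetes. With centring on the 75th percentile, Prkcd 1422847_a_at was -0.0061 for RBX in diabetic mice. Prkch 1434248_at was -0.0013 for RBX in diabetic mice. Prkci 1417410_s_at was -0.020 for diabetes with RBX. With array weights, Prkcd 1422847_a_at was -0.028 for RBX in diabetic mice. Prkca 1450945_at was -0.034 for RBX in diabetic mice, -0.056 for RBX in non-diabetic mice, 0.022 for the interaction and -0.045 for averaged RBX. Prkci 1417410_s_at was -0.023 for diabetes with RBX. Prkcb 1423478_at was 0.0026 for diabetes with RBX. With cre as a covariate, Prkci 1417410_s_at was 0.031 for diabetes without RBX, 0.0091 for RBX in diabetic mice, 0.21 for RBX in non-diabetic mice, -0.17 for diabetes with RBX, -0.20 for the interaction and 0.11 for averaged RBX. Prkcb 1423478_at was -0.031 for diabetes without RBX, -0.43 for RBX in non-diabetic mice, 0.42 for diabetes with RBX, 0.45 for the interaction and -0.21 for averaged RBX. Prkch 1434248_at was -0.076 for RBX in diabetic mice. Prkch 1422079_at was -0.046 for averaged RBX. With the Actb ratio as a covariate, Prkcd 1422847_a_at was 0.064 for diabetes without RBX. Prkch 1434248_at was -0.094 for RBX in diabetic mice. Prkce 1449956_at was -0.074 for RBX in diabetic mice. Prkce 1452878_at was -0.10 for RBX in non-diabetic mice and -0.18 for averaged RBX. Prkcb 1423478_at was 0.10 for diabetes with RBX. Leaving out 1 mouse at a time gave, for diabetes without RBX, -0.14 to 0.015 for Prkci 1417410_s_at, -0.14 to 0.083 for Prkcd 1422847_a_at and -0.12 to 0.69 for Prkce 1449956_at. The ranges for RBX in diabetic mice were -0.12 to 0.018 for Prkci 1417410_s_at, -0.11 to 0.11 for Prkcd 1422847_a_at, -0.090 to 0.11 for Prkch 1434248_at, -0.049 to 0.21 for Prkca 1437393_at, -0.0053 to 0.27 for Prkce 1437861_s_at, -0.17 to 0.38 for Prkce 1449956_at, -0.080 to 0.13 for Prkca 1450945_at, -0.24 to 0.068 for Prkce 1452878_at and -0.071 to 0.12 for Prkcb 1460419_a_at. The range for RBX in non-diabetic mice was -0.031 to 0.44 for Prkca 1450945_at. The ranges for diabetes with RBX were -0.058 to 0.049 for Prkci 1417410_s_at and -0.21 to 0.14 for Prkcb 1423478_at. The ranges for the interaction were -0.013 to 0.14 for Prkci 1417410_s_at and -0.41 to 0.061 for Prkca 1450945_at. The ranges for averaged diabetes were -0.068 to 0.0082 for Prkci 1417410_s_at, -0.030 to 0.070 for Prkch 1434248_at, -0.11 to 0.025 for Prkca 1437393_at, -0.093 to 0.043 for Prkce 1437861_s_at, -0.33 to 0.072 for Prkce 1449956_at, -0.036 to 0.12 for Prkce 1452878_at and -0.060 to 0.12 for Prkcb 1460419_a_at. The range for averaged RBX was -0.00039 to 0.24 for Prkca 1450945_at. Other results kept their sign in each alternative run.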
